A study of Mus musculus with 8 samples.

Results

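Syndecans, glypican-1, matrix proteoglycans and the genes of hyaluronan were examined in NMuMG cells, a mouse mammary epithelial line, after transfection with siRNA against Klf4 (siKlf4) or control siRNA (siControl). The set holds 10 genes: the syndecans Sdc1, Sdc2, Sdc3 and Sdc4, the glypican Gpc1, the matrix proteoglycans Hspg2, Vcan and Bgn, the hyaluronan synthase Has2 and the hyaluronan receptor Cd44. Each was taken as the probe set that the array annotation pairs with that gene symbol and no other, and each of the 10 had 1 such probe set among the 19937 genes tested. RNA was hybridised to 8 Affymetrix arrays in 4 groups of 2: siKlf4 cells with 2 ng/ml TGFβ for 2 days, siControl cells with the same TGFβ treatment, siKlf4 cells without TGFβ, and siControl cells without TGFβ. The cells are 1 subclone of the line (NMuMG/E9), and all of them were transfected, since the siControl cells also carry an siRNA. Nothing in the labels tells if both arrays of 1 group stem from independent cultures. The p-values therefore cover the scatter among the hybridised samples and possibly no more than technical scatter. Values are array signals on a log2 scale after RMA, the normalization that brings all arrays to a common distribution, and a difference of 1 is a 2-fold change.

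Proteoglycans are proteins that carry long sulfated sugar chains, heparan sulfate or chondroitin sulfate, through which they hold growth factors, matrix proteins and proteases at the cell surface and in the matrix. Syndecans span the membrane and link the matrix to the actin cytoskeleton, glypicans sit in the outer leaflet on a lipid anchor, and both act as co-receptors for growth factors. Hyaluronan is an unsulfated chain made at the plasma membrane by hyaluronan synthases and bound by CD44. In mammary epithelium syndecan-1 is the typical syndecan of cells that keep their junctions, and the balance of these molecules is known to shift when epithelial cells take on a mesenchymal shape (EMT), a change that TGFβ induces in NMuMG cells.

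The targeted gene was read first. Klf4 had 7.43 and 7.24 in siKlf4 arrays with TGFβ against 7.46 and 7.46 in siControl arrays with TGFβ, and 8.03 and 7.91 in siKlf4 arrays against 8.60 and 8.43 in siControl arrays without it. Its array level was therefore 0.686-fold in siKlf4 cells without TGFβ (log2 difference -0.54 ± 0.0987 SE, limma adjusted p = 0.00369), and with TGFβ the difference of -0.13 did not pass (adjusted p = 0.444, 95% interval -0.35 to 0.10). TGFβ was itself accompanied by lower Klf4, with log2 differences of -0.63 in siKlf4 cells (adjusted p = 0.00295) and -1.05 in siControl cells (0.000357). The luminal keratins Krt8 and Krt18 and E-cadherin (Cdh1) averaged 13.2, 12.5 and 10.5 over the 8 arrays, and of 12 luminal markers 10 lay above the level that 30% of genes fall below (4.18). Epcam at 3.98 and Esrp1 at 3.90 lay under it. The mean of the luminal list ran from 8.24 to 8.32 in siKlf4 arrays with TGFβ, 8.19 to 8.21 in siControl arrays with TGFβ, 8.25 to 8.39 in siKlf4 arrays and 8.19 to 8.31 in siControl arrays. With siKlf4, 4 of its genes were called higher (Krt7, Krt8, Krt18 and Cldn4) and 3 lower (Krt19, Ocln and Muc1) in either condition. Over all genes 12.3% were called higher and 11.9% lower with TGFβ, and 9.98% and 9.71% without. Cldn4 differed by 3.66 with TGFβ and 2.95 without, and Muc1 by -2.64 and -2.23. The list mean thus hides changes in opposite directions. Of 9 fibroblast markers, 1 (Col1a1) was called higher and 1 (Thy1) lower with siKlf4 in the presence of TGFβ, and 2 higher (Col1a1 and Pdgfrb) and 0 lower in its absence, while Dcn, Lum and Fap lay under 4.18. The mean of that list ran from 4.74 to 4.82 in siKlf4 arrays with TGFβ, 4.71 to 4.73 in siControl arrays with TGFβ, 4.85 to 4.96 in siKlf4 arrays and 4.58 to 4.75 in siControl arrays. Of 7 myoepithelial markers, 1 was higher and 1 lower with siKlf4 in either condition: Acta2, smooth muscle actin, by 2.21 with TGFβ (adjusted p = 2.73e-06) and 1.86 without (1.25e-05), while Krt5 differed by -0.81 (0.00758) and -0.71 (0.0173). That list's mean ran from 5.14 to 5.22 in siKlf4 arrays with TGFβ, 4.92 to 5.01 in siControl arrays with TGFβ, 5.09 to 5.21 in siKlf4 arrays and 4.92 to 5.01 in siControl arrays. Of 7 leukocyte markers, Csf1r was higher with siKlf4 by 1.00 with TGFβ (1.47e-05) and 0.38 without (0.00711), and Cd68 by 0.61 with TGFβ (0.0106), while the pan-leukocyte gene Ptprc, Adgre1, Cd79a and Itgam lay under 4.18. The leukocyte mean ran from 4.65 to 4.70 in siKlf4 arrays with TGFβ, 4.48 to 4.54 in siControl arrays with TGFβ, 4.65 to 4.72 in siKlf4 arrays and 4.54 to 4.63 in siControl arrays. TGFβ-treated arrays were also set against untreated ones. Of the luminal list 1 was called higher and 2 lower in siKlf4 cells, and 0 and 1 in siControl cells. For the fibroblast list these were 0 and 1, and 0 and 0. Over all genes the shares were 6.01% and 6.87%, and 5.81% and 6.65%. Cdh1 read 10.79 and 10.89 with TGFβ against 10.20 and 10.15 without in siKlf4 arrays, and 10.62 and 10.62 against 10.37 and 10.36 in siControl arrays. The part of these lists in the results was not tested, and no endothelial or adipocyte marker was called with siKlf4. In RNA from whole cultures a change in the make-up of the cells and a change in RNA per cell cannot be told apart.

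Transfection with siKlf4 was accompanied by higher RNA of syndecan-3, glypican-1, perlecan and CD44 both with and without TGFβ. In the presence of TGFβ, 6 of the 10 genes were higher in siKlf4 than in siControl cells (Sdc1, Sdc3, Sdc4, Gpc1, Cd44 and Hspg2), 0 were lower and 4 did not pass. In the absence of TGFβ, 5 were higher (Sdc3, Gpc1, Cd44, Has2 and Hspg2), 0 were lower and 5 did not pass. Over all 19937 genes the same test called 12.3% higher and 11.9% lower with TGFβ, and 9.98% higher and 9.71% lower without it (limma, adjusted p threshold 0.05 over all genes). The median log2 difference of the 10 genes was 0.39 with TGFβ and 0.52 without, beside -0.03 and 0.00 over all genes. Members with a mean under 4.18, where a value may not stand above background, were Sdc2, Has2, Vcan and Bgn, so 6 of the 10 passed that limit.

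**Figure D1:**
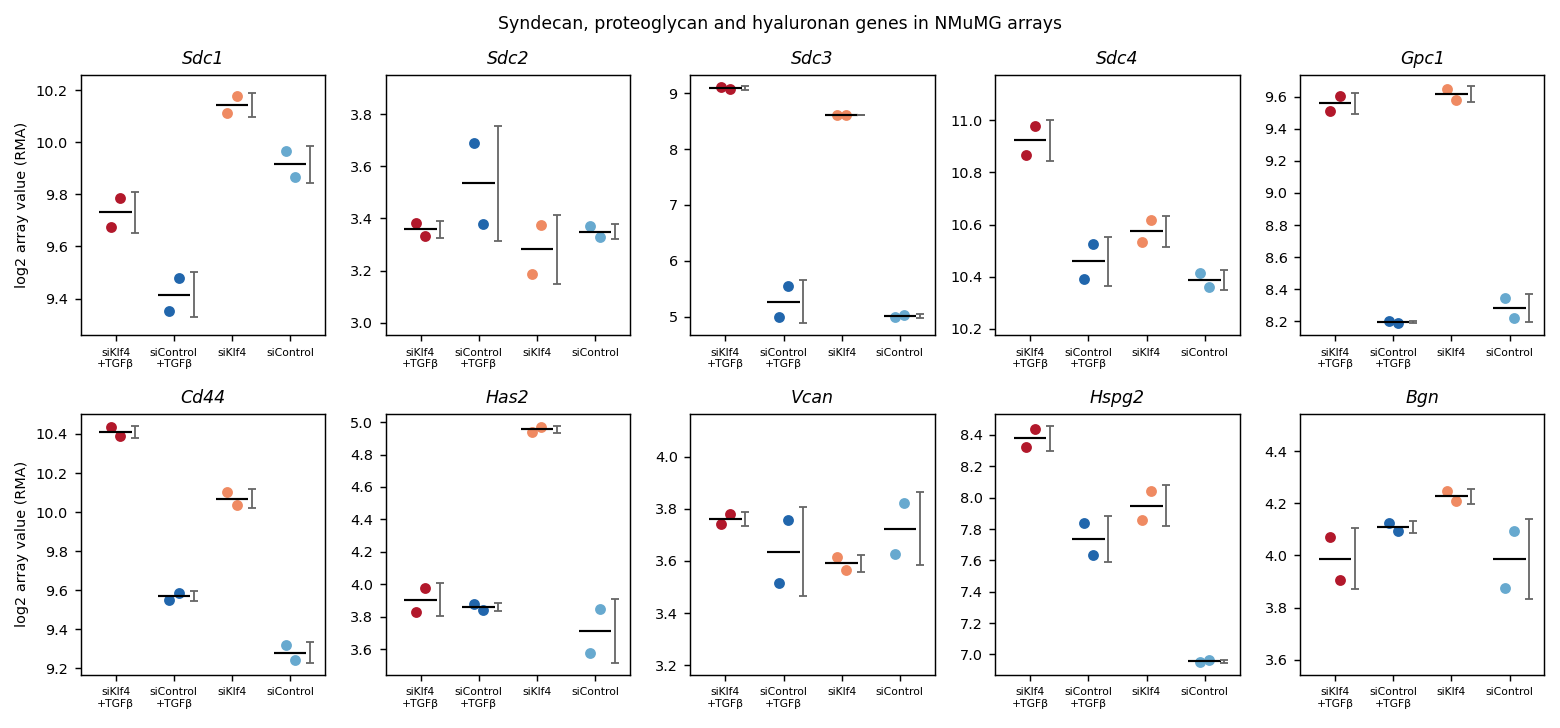
Log2 array value after RMA (y axis, a scale of its own in each panel) of the 10 genes in the 4 groups (x axis), with 1 point per array, the group mean as a line and 1 SD beside it (n = 2 arrays per group). The siKlf4 arrays of Sdc3, Gpc1 and Cd44 sit above the siControl arrays with and without TGFβ, while Has2 is high in the 2 siKlf4 arrays without TGFβ.

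Sdc3 (probe set 10508651), a syndecan best known from nerve and muscle, differed most of the 10. Its arrays read 9.11 and 9.07 in siKlf4 cells with TGFβ, against 5.0 and 5.54 in siControl cells with TGFβ. Without TGFβ they read 8.61 and 8.61 in siKlf4 cells, against 4.99 and 5.04 in siControl cells. All 4 siKlf4 arrays thus lay more than 3 log2 units above all 4 siControl arrays. The difference was 3.82 ± 0.15 (SE) with TGFβ, a 14.1-fold rise (limma adjusted p = 4.88e-07), and 3.59 ± 0.15 without, a 12.1-fold rise (adjusted p = 1.14e-06). Among the 19937 genes it was the 12th largest difference of either sign with TGFβ and the 5th largest without. The siKlf4 effect on Sdc3 did not differ between the conditions beyond error (interaction 0.22, 95% interval -0.25 to 0.70, adjusted p = 0.747).

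The other syndecans moved less. Sdc4 (probe set 10489484), the syndecan of focal adhesions, had 10.87 and 10.98 in siKlf4 arrays with TGFβ against 10.39 and 10.53 in siControl arrays with TGFβ. It was 1.38-fold higher there (log2 difference 0.46 ± 0.0869 SE, limma adjusted p = 0.00357). Without TGFβ it had 10.53 and 10.62 in siKlf4 arrays against 10.42 and 10.36 in siControl arrays. These did not overlap, but the difference of 0.19 did not pass (95% interval -0.01 to 0.38, adjusted p = 0.200, and 0.0353 with a spread that follows the level).

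Sdc1 (probe set 10394471), the syndecan typical of epithelia, had 9.68 and 9.79 in siKlf4 arrays with TGFβ against 9.35 and 9.48 in siControl arrays with TGFβ. The difference was 0.32 ± 0.0873 (SE), 1.24-fold, with limma adjusted p = 0.0271. That call rested on every array compared: the adjusted p was 0.0600 or 0.188 without array 1 or 2 of siKlf4 with TGFβ, 0.195 or 0.0545 without array 1 or 2 of siControl with TGFβ, and 0.0575 in an unmoderated analysis of variance. Without TGFβ the arrays read 10.11 and 10.18 in siKlf4 cells and 9.96 and 9.87 in siControl cells, a difference of 0.23 that did not pass (95% interval 0.03 to 0.43, adjusted p = 0.112, and 0.0176 with a spread that follows the level). Sdc2 (probe set 10423548), the syndecan of mesenchymal cells, read between 3.19 and 3.69 on all 8 arrays. Its siKlf4 and siControl arrays overlapped in both conditions, with differences of -0.18 with TGFβ (95% interval -0.43 to 0.08) and -0.07 without (-0.33 to 0.19).

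Gpc1 (probe set 10348653), a lipid-anchored heparan sulfate proteoglycan, had 9.51 and 9.60 in siKlf4 arrays with TGFβ against 8.20 and 8.19 in siControl arrays with TGFβ. Without TGFβ it had 9.65 and 9.58 in siKlf4 arrays against 8.34 and 8.22 in siControl arrays. The siKlf4 arrays formed 1 level and the siControl arrays another, whatever the TGFβ treatment. The rise was 2.57-fold with TGFβ (1.36 ± 0.0831 SE, limma adjusted p = 3.91e-06) and 2.52-fold without (1.33 ± 0.0831 SE, adjusted p = 7.68e-06).

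Cd44 (probe set 10485405), the main cell surface receptor for hyaluronan, had 10.43 and 10.39 in siKlf4 arrays with TGFβ against 9.55 and 9.59 in siControl arrays with TGFβ. Without TGFβ it had 10.10 and 10.03 in siKlf4 arrays against 9.32 and 9.24 in siControl arrays. It was 1.79-fold higher with TGFβ (0.84 ± 0.0776 SE, limma adjusted p = 4.52e-05) and 1.73-fold higher without (0.79 ± 0.0776 SE, adjusted p = 0.000108). CD44 is spliced differently in epithelial and mesenchymal cells, and 1 value per gene does not separate its isoforms.

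Has2 (probe set 10428707), which makes hyaluronan at the plasma membrane, was higher with siKlf4 where TGFβ was absent. Without TGFβ it had 4.94 and 4.97 in siKlf4 arrays against 3.57 and 3.85 in siControl arrays, a fitted log2 difference of 1.24 ± 0.104 (SE, limma adjusted p = 4.05e-05). Since the siControl arrays lay under 4.18, the level itself was set in their place, and Has2 was then at least 1.71-fold higher in siKlf4 cells. With TGFβ it had 3.83 and 3.98 in siKlf4 arrays against 3.88 and 3.84 in siControl arrays. These arrays overlapped, and the difference of 0.04 had a 95% interval of -0.19 to 0.28 (adjusted p = 0.833). The siKlf4 arrays without TGFβ were the 2 that read above 4.18, the limit below which 30% of genes lie, and the other 6 read below it.

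Perlecan (Hspg2, probe set 10509280), the large heparan sulfate proteoglycan of basement membranes, had 8.32 and 8.44 in siKlf4 arrays with TGFβ against 7.84 and 7.63 in siControl arrays with TGFβ. Without TGFβ it had 7.86 and 8.04 in siKlf4 arrays against 6.95 and 6.96 in siControl arrays. The rise was 1.56-fold with TGFβ (0.64 ± 0.102 SE, limma adjusted p = 0.00134) and 1.99-fold without (0.99 ± 0.102 SE, adjusted p = 0.000135). The untreated siControl arrays were the lowest of the 4 groups for this gene.

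Biglycan (Bgn, probe set 10600169), a small leucine-rich proteoglycan of connective tissue, read from 3.88 to 4.25 over the 8 arrays, and versican (Vcan, probe set 10410931), a large chondroitin sulfate proteoglycan that binds hyaluronan, from 3.51 to 3.82. Both lay below 4.18 on average. Bgn differed by -0.12 with TGFβ (95% interval -0.34 to 0.10) and by 0.24 without (0.02 to 0.46, limma adjusted p = 0.136). Vcan differed by 0.13 with TGFβ (-0.11 to 0.36) and by -0.13 without (-0.37 to 0.10).

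The rises of Sdc3, Gpc1, Cd44 and Hspg2 in both conditions, of Sdc4 with TGFβ and of Has2 without it passed under each alternative in which they were tested, every array left out in turn included. Has2 falls out of the test when dim genes are removed.

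**Figure D2:**
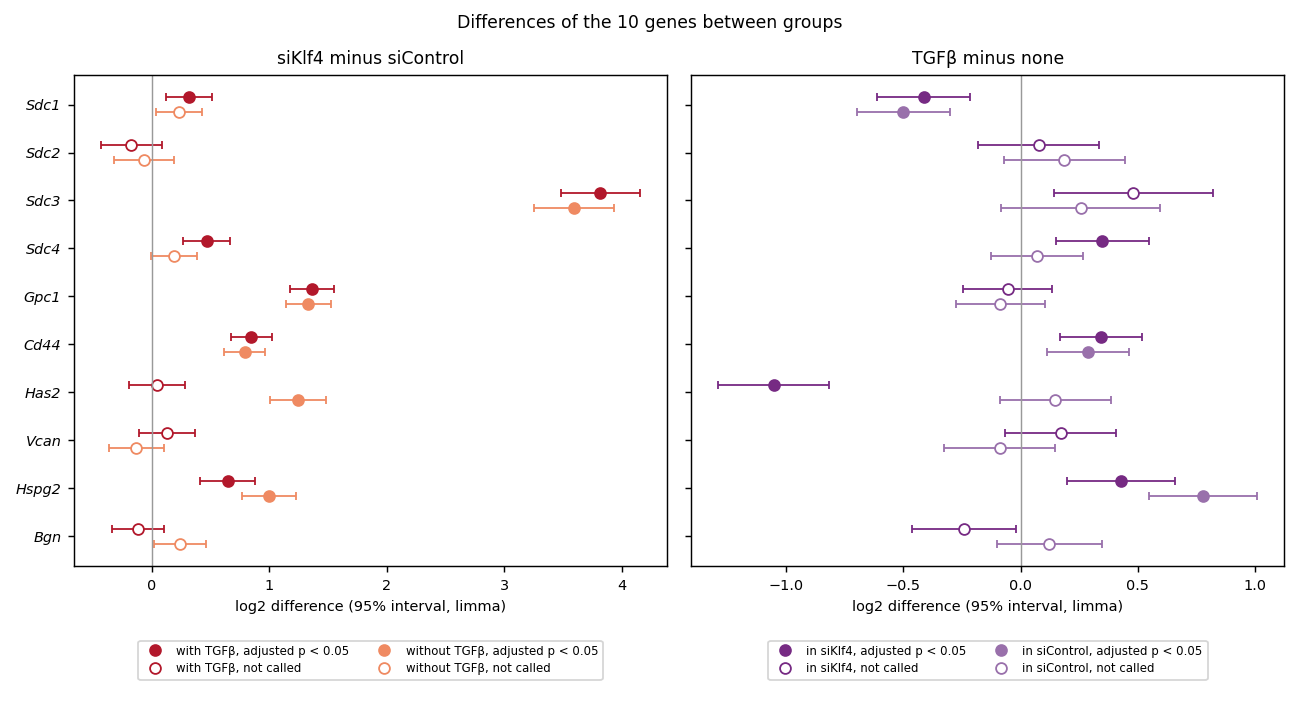
Log2 difference of each gene (x axis) with its 95% interval from limma, for siKlf4 minus siControl (left) with and without TGFβ and for TGFβ minus none (right) in siKlf4 and siControl cells. Filled points passed an adjusted p of 0.05; Sdc3 stands at 3.82 and 3.59 on the left, and Has2 at -1.05 in siKlf4 cells on the right.

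Klf4 is a zinc finger factor that recognises GC-rich elements containing CACCC, so the bases before the gene starts are shown for Sdc3 and Hspg2, the members with the widest range between groups among those with an entry, and for Cd44, the 1 window with no CACCC. Windows of 250 bases before the start were taken from RefSeq (GRCm38.p6), which held an entry for 7 of the 10 genes, those other than Sdc2, Gpc1 and Has2. They are written from the gene's own strand, and capitals mark CACCC or its reverse complement GGGTG.
Sdc3, chr4:130792287-130792536, plus strand: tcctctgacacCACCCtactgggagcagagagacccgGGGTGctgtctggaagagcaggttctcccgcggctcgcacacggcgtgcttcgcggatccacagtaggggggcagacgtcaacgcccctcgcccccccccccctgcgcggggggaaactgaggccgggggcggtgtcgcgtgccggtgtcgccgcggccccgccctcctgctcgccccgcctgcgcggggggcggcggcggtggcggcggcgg
Hspg2, chr4:137468553-137468802, plus strand: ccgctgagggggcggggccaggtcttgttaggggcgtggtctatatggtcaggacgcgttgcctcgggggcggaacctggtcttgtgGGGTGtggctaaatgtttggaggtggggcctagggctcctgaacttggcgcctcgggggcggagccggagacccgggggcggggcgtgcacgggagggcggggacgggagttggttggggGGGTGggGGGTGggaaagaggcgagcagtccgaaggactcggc
Cd44, chr2:102901666-102901915, minus strand: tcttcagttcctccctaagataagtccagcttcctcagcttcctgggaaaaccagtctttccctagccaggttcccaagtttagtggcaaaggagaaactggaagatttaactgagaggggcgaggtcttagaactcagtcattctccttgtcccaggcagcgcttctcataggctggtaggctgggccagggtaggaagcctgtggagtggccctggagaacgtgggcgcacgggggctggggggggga
CACCC was found on either strand in 6 of the 7 windows and in 52.0% of 32851 RefSeq windows of that length. GGGCGG, or CCGCCC on the other strand, a GC box of the kind bound by Sp1, was in 6 of the 7 and in 32.7% of all windows, and its matches may overlap those of CACCC. The Sdc3 window held 2 CACCC and 3 GGGCGG matches at 76.4% GC, the Hspg2 window 3 and 5 at 70.0% GC, and the Cd44 window 0 and 0 at 56.4% GC. The windows of Sdc1 and Sdc4 held 5 and 2 CACCC matches, and those of Vcan and Bgn, which were called in no comparison, held 4 and 2. A match to these letters is a description of the window, and binding was not measured in these arrays.

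TGFβ was called in either direction for 5 of the 10 genes in siKlf4 cells and for 3 in siControl cells. In siKlf4 cells, TGFβ-treated arrays were higher for 3 genes (Sdc4, Cd44 and Hspg2) and lower for 2 (Sdc1 and Has2), with 5 that did not pass, where 6.01% of all genes were called higher and 6.87% lower. In siControl cells they were higher for 2 (Cd44 and Hspg2) and lower for 1 (Sdc1), with 7 that did not pass, beside 5.81% higher and 6.65% lower over all genes. The median of the 10 was 0.12 in siKlf4 and 0.14 in siControl cells, and that of all genes -0.02 and 0.02.

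Has2 was at least 1.71-fold lower in TGFβ-treated than in untreated siKlf4 cells, counted from 4.18 because the treated arrays lay under it (fitted log2 difference -1.05 ± 0.104 SE, limma adjusted p = 0.000281), and this passed whichever array was left out. In siControl cells the difference was 0.15 (-0.09 to 0.38, adjusted p = 0.453). Hspg2 was 1.72-fold higher with TGFβ in siControl cells (0.78 ± 0.102 SE, adjusted p = 0.00153), also without any 1 array. In siKlf4 cells it was 1.35-fold higher (0.43, adjusted p = 0.0238), a call lost without siKlf4 array 1 (0.116) or without array 1 (0.0741) or 2 (0.173) of siKlf4 with TGFβ, and in an unmoderated analysis of variance (0.110).

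Sdc1 was the member lower with TGFβ in both siRNA backgrounds. It was 0.751-fold in siKlf4 cells (-0.41 ± 0.0873 SE, limma adjusted p = 0.0139) and 0.707-fold in siControl cells (-0.50 ± 0.0873 SE, adjusted p = 0.00612). The siKlf4 call was lost without siKlf4 array 2 (0.0749) or without array 1 (0.120) or 2 (0.0502) of siKlf4 with TGFβ and in an unmoderated analysis of variance (0.0525), and the siControl call without array 1 of siControl with TGFβ (0.0653).

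The gains of Cd44 and Sdc4 with TGFβ were small. Cd44 was 1.27-fold higher in siKlf4 cells (0.34 ± 0.0776 SE, limma adjusted p = 0.0188) and 1.22-fold in siControl cells (0.29 ± 0.0776 SE, adjusted p = 0.0424). The siKlf4 call was lost without siKlf4 array 2 (0.0929) or array 1 (0.132) or 2 (0.0936) of siKlf4 with TGFβ. The siControl call was lost without siControl array 1 (0.0805) or 2 (0.135), array 1 (0.160) or 2 (0.220) of siControl with TGFβ, or either array of siKlf4 with TGFβ (0.0795 for each), and with the 4 arrays compared alone (0.0895). Sdc4 was 1.27-fold higher in siKlf4 cells (0.35 ± 0.0869 SE, adjusted p = 0.0295), a call lost without siKlf4 array 1 (0.115) or 2 (0.0639) or array 1 (0.0793) or 2 (0.210) of siKlf4 with TGFβ, with the 4 arrays compared alone (0.0569) and in an unmoderated analysis of variance (0.0711). In siControl cells it differed by 0.07 (-0.13 to 0.27).

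Sdc3 differed by 0.48 with TGFβ in siKlf4 cells, where the 2 arrays per group did not overlap but the test was not passed (95% interval 0.14 to 0.82, limma adjusted p = 0.0717). Without array 1 or array 2 of siControl with TGFβ, that adjusted p was 0.00856 in each case, and it was 0.0135 with the 4 arrays compared alone and 0.0231 with a spread that follows the level. In siControl cells Sdc3 differed by 0.26 (-0.08 to 0.59, adjusted p = 0.351), and by 0.53 without array 1 of siControl with TGFβ (0.0246). Gpc1 hardly moved with TGFβ in either background, with intervals of -0.24 to 0.13 in siKlf4 and -0.27 to 0.10 in siControl cells.

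The response to siKlf4 in the presence of TGFβ was then set against that in its absence through the interaction term of the same fit. Has2 was lower by this measure (-1.20 ± 0.147 SE, 95% interval -1.53 to -0.87, limma adjusted p = 0.0101), and no member was higher. The other 3 group means of Has2 (3.90, 3.86 and 3.71) lay under 4.18, so the call rests on the siKlf4 group without TGFβ and the size of the interaction is not well determined. Over all genes the interaction was called positive for 0.547% and negative for 0.978%. The Has2 call was not kept without array 1 (0.0582) or 2 (0.0512) of siKlf4 with TGFβ or without array 1 (0.0583) or 2 (0.0545) of siControl with TGFβ, nor in an unmoderated analysis of variance (0.131). Hspg2 (-0.35, 95% interval -0.68 to -0.02, adjusted p = 0.373) and Bgn (-0.36, -0.68 to -0.05, adjusted p = 0.329) did not pass, and for Gpc1, Cd44 and Sdc1 the interval included 0, with estimates of 0.03, 0.06 and 0.09. Sdc4 did not pass either (0.28, 95% interval -0.000636 to 0.56, limma adjusted p = 0.416). Its siKlf4 difference was therefore not shown to depend on TGFβ.

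Cells with both treatments were also compared with untreated siControl cells, which are the reference of other comparisons here too. Of the 10 genes, 5 were higher (Sdc3, Hspg2, Gpc1, Cd44 and Sdc4) and 0 lower, beside 14.7% higher and 15.3% lower over all genes. Sdc3 was 16.8-fold higher (limma adjusted p = 2.55e-07), Hspg2 2.68-fold (6.45e-06), Gpc1 2.42-fold (3.69e-06), Cd44 2.19-fold (5.05e-06) and Sdc4 1.45-fold (0.00117). Has2 and Sdc1 lay close to the untreated level, with differences of 0.19 (95% interval -0.04 to 0.43) and -0.18 (-0.38 to 0.01). Has2 passed without siControl array 2 (0.33, adjusted p = 0.0435), and Sdc1 with a spread that follows the level (0.0425).

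siKlf4 cells without TGFβ were set against siControl cells with TGFβ, each under 1 of the 2 treatments. Here 5 genes were higher (Sdc3, Gpc1, Has2, Sdc1 and Cd44) and 0 lower, beside 11.5% and 10.5% of all genes. Sdc3 was 10.1-fold, Gpc1 2.67-fold, Has2 at least 1.71-fold (counted from 4.18), Sdc1 1.66-fold and Cd44 1.41-fold higher with siKlf4 alone. The limma adjusted p were 1.16e-06, 4.73e-06, 7.35e-05, 0.000307 and 0.00140, that of Has2 for its fitted log2 difference of 1.10. Hspg2 (0.21, 95% interval -0.02 to 0.45) and Sdc4 (0.11, -0.08 to 0.31) did not separate these groups. Klf4 itself was 1.42-fold higher in the siKlf4 cells without TGFβ than in the siControl cells with TGFβ (0.51 ± 0.0987 SE, adjusted p = 0.00509).

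Ranked over the 4 groups, the genes gave different orders. Cd44 ran from siKlf4 with TGFβ through siKlf4 and siControl with TGFβ to siControl, and all 3 neighbouring pairs passed (limma adjusted p = 0.0188, 0.00140 and 0.0424). Sdc3, Hspg2 and Sdc4 had the same order, but the siKlf4 with TGFβ and siKlf4 groups were not separated for Sdc3 (0.0717), siKlf4 and siControl with TGFβ were not for Hspg2 (0.196) or Sdc4 (0.451), and the 2 siControl groups were not for Sdc3 (0.351) or Sdc4 (0.700). Sdc1 was highest in siKlf4 and lowest in siControl with TGFβ, where the lowest 2 groups, siKlf4 with TGFβ and siControl with TGFβ, were the one neighbouring pair that passed (0.0271). Gpc1 and Has2 were highest in siKlf4; Gpc1 separated into siKlf4 and siControl levels alone, and Has2 separated at the step to siKlf4 with TGFβ (0.000281) and at no lower one. No neighbouring groups passed for Sdc2, Vcan or Bgn.

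The genes most like the 3 members with the widest range of group means were found by Pearson's r over the 8 arrays, as a description that 4 groups of 2 arrays share. Sdc3 was followed by Rasa3 (r = 0.999), Lmcd1 (0.997) and Col18a1 (0.997). Hspg2 was followed by Pip5k1a (0.993), Igf1r (0.992) and Sinhcaf (0.991), and Gpc1 by Orm3 (0.998), Myh9 (0.998) and Fam210b (0.997). Rasa3 is a Ras GTPase-activating protein, Lmcd1 a LIM domain protein, Igf1r the receptor for insulin-like growth factor 1, and Myh9 the heavy chain of non-muscle myosin IIA. Col18a1, itself a basement membrane heparan sulfate proteoglycan, had 9.52 and 9.63 in siKlf4 arrays with TGFβ against 8.55 and 8.64 in siControl arrays with TGFβ, and 9.48 and 9.51 in siKlf4 arrays against 8.52 and 8.56 in siControl arrays.

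Enzymes that build and trim the chains were read as lists, each beside the share of all genes called with siKlf4 (12.3% higher and 11.9% lower with TGFβ, 9.98% and 9.71% without). Of 30 measured heparan sulfate genes, 8 were higher and 1 lower in siKlf4 cells with TGFβ, and 6 higher and 2 lower without (26.7% and 3.33% with TGFβ, 20% and 6.67% without). The list takes in genes of the linker between chain and protein, which is not specific to heparan sulfate. Among these, B4galt7 was called higher in both conditions, Xylt2 and B3gat3 with TGFβ and B3galt6 without. Ext1, a subunit of the heparan sulfate polymerase, had 11.40 and 11.46 in siKlf4 arrays with TGFβ against 10.04 and 10.04 in siControl arrays with TGFβ, and 10.94 and 10.99 in siKlf4 arrays against 9.56 and 9.54 in siControl arrays. It rose by 1.41 ± 0.0750 (SE) without TGFβ (limma adjusted p = 3.26e-06). Glce, the epimerase that converts glucuronic to iduronic acid in the chain, rose by 1.42 ± 0.0809 (SE) with TGFβ (adjusted p = 2.80e-06). Without TGFβ it rose by 0.39 (0.00773), and its interaction was called (1.02, 0.00739). TGFβ itself went with lower Glce in siControl cells (-0.54, 0.00308) and higher Glce in siKlf4 cells (0.49, 0.00406). Hs3st1, which adds a rare 3-O-sulfate, fell by 0.52 ± 0.14 (SE) in both conditions (adjusted p = 0.0237 with TGFβ and 0.0301 without), and reached 0.155 and 0.179 as the highest adjusted p without 1 array. It lost its call without any 1 of the 4 TGFβ arrays in the first comparison, and without siControl array 1 or siKlf4 array 2 in the second. The list's count of lower genes moved with single arrays: with TGFβ it was 0 without array 1 of siControl with TGFβ or either array of siKlf4 with TGFβ and 2 without either siControl array, and without TGFβ it was 0 without siControl array 1 and 1 without either siKlf4 array.

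The 16 chondroitin and dermatan sulfate genes had 8 higher (50%) and 0 lower in each condition, with a median of 0.31 with TGFβ and 0.34 without. Leaving out array 2 of siKlf4 with TGFβ brought the count with TGFβ to 5. Chsy1, a chondroitin synthase, had 9.22 and 9.40 in siKlf4 arrays against 7.94 and 7.89 in siControl arrays without TGFβ (1.39 ± 0.0870 SE, limma adjusted p = 7.68e-06). Chsy3, a related synthase, had 6.78 and 6.47 in siKlf4 arrays against 5.31 and 5.33 in siControl arrays with TGFβ (1.30 ± 0.126 SE, adjusted p = 6.17e-05). Neither pair of groups overlapped.

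Hyaluronan genes other than Has2 and Cd44 were called at shares near or under those of all genes. Of 24 measured, 3 were higher and 3 lower with TGFβ (12.5% each), and 1 was higher (4.17%) and 2 lower (8.33%) without. Of the 24, 14 averaged above 4.18, and shares among such brighter genes alone were not counted. Hyal2, a surface hyaluronidase, rose by 0.87 ± 0.0903 (SE) with TGFβ (limma adjusted p = 9.30e-05) and 0.78 ± 0.0903 without (0.000270). Hmmr, a hyaluronan-binding protein of the mitotic spindle, fell by 1.64 ± 0.164 with TGFβ (7.63e-05) and by 0.92 ± 0.164 without (0.00348). Cemip2, a protein reported to degrade hyaluronan at the cell surface, was lower with TGFβ, by 1.29 ± 0.0944 in siKlf4 cells (6.97e-05) and 1.03 ± 0.0944 in siControl cells (0.000319).

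Among 30 other core proteins 1 was higher and 1 lower in each condition (3.33% each). Of these 30, 13 averaged above 4.18. The same held for 23 of 30 heparan sulfate genes, 13 of 16 chondroitin and dermatan sulfate genes, 14 of 14 cytoplasmic partners and 9 of 13 proteases. The shares called in the lists are therefore not on an equal footing. Col18a1 was higher by 0.98 ± 0.0814 (SE) with TGFβ (limma adjusted p = 2.38e-05) and 0.95 ± 0.0814 without (4.53e-05). Tgfbr3, betaglycan, a proteoglycan co-receptor for TGFβ, was lower by 0.73 ± 0.0874 with TGFβ (0.000227) and by 0.36 ± 0.0874 without (0.0165). Its call without TGFβ was lost without siControl array 2 or siKlf4 array 1 (at most 0.0884), which leaves 0 lower genes, and without siControl array 2 a second gene was called higher.

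Of 14 measured cytoplasmic partners of syndecans and CD44, 4 were higher and 4 lower with TGFβ (28.6% each), and 4 higher (28.6%) and 2 lower (14.3%) without. Actn1, the actin cross-linker alpha-actinin-1 that binds syndecan-4, rose by 1.87 ± 0.0910 (SE) with TGFβ (limma adjusted p = 1.29e-06) and by 1.88 ± 0.0910 without (2.05e-06). Ezr, ezrin, which ties CD44 to actin, fell by 0.98 ± 0.0943 (5.91e-05) and by 0.90 ± 0.0943 (0.000158). Its relative Msn, moesin, went the other way. It rose by 1.13 ± 0.0757 with TGFβ (6.91e-06) and by 1.30 ± 0.0757 without (5.44e-06), while Rdx, radixin, was called in neither condition. With TGFβ the lower count became 2 without array 1 of siControl with TGFβ or array 2 of siKlf4 with TGFβ and 1 without array 2 of siControl with TGFβ or array 1 of siKlf4 with TGFβ. Without TGFβ it became 1 without any array other than siControl array 2 or siKlf4 array 1.

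Of 13 proteases known to cut syndecans, CD44 or versican, 4 were higher with TGFβ (30.8%) and 3 without (23.1%), and 0 were lower in either, though 1 was lower without siControl array 1 in either condition or without siControl array 2 with TGFβ. Mmp14, a membrane-bound protease that cleaves CD44 and syndecan-1, had 10.91 and 10.95 in siKlf4 arrays with TGFβ against 9.11 and 9.16 in siControl arrays with TGFβ, and 10.37 and 10.34 in siKlf4 arrays against 8.67 and 8.66 in siControl arrays. It rose by 1.80 ± 0.0745 (SE) with TGFβ (limma adjusted p = 6.83e-07) and by 1.69 ± 0.0745 without (1.40e-06). RNA levels of a protease do not say how much of its substrate was shed. The medians of the lists other than the chondroitin genes lay between -0.06 and 0.10.

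**Figure D3:**
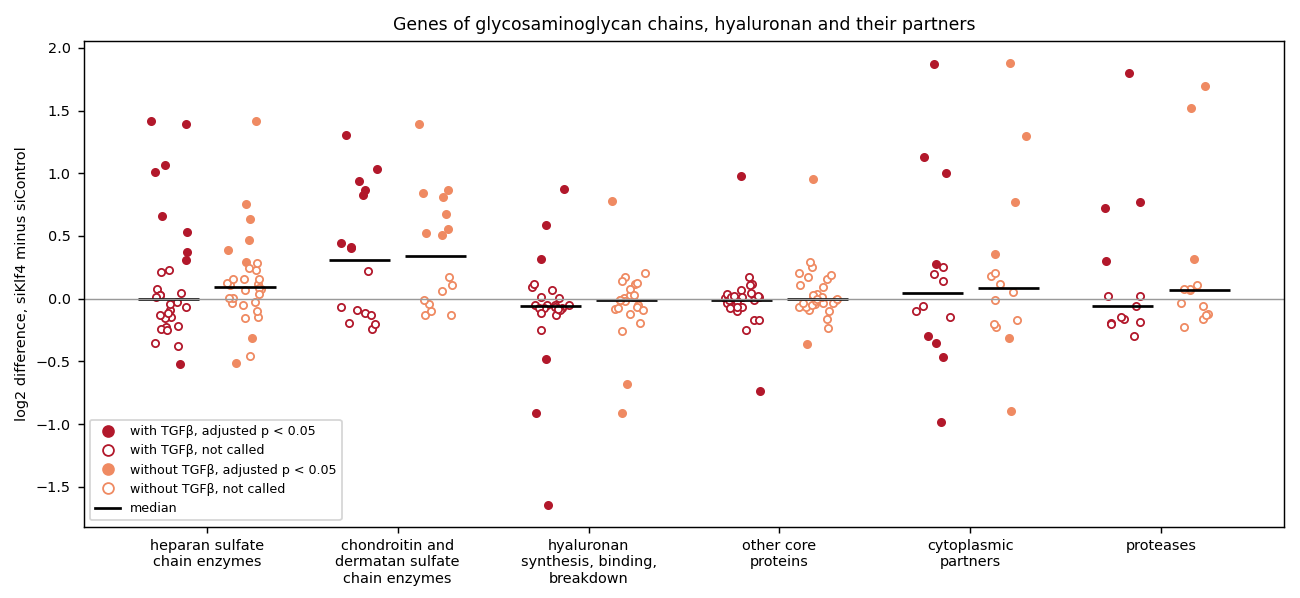
Log2 difference, siKlf4 minus siControl (y axis), of every measured gene of 6 lists (x axis), with 1 point per gene, filled where limma's adjusted p was under 0.05, and the list median as a line. The chondroitin and dermatan sulfate list has medians of 0.31 with TGFβ and 0.34 without, while Mmp14, Actn1 and Ext1 stand out in lists whose medians are near 0.

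TGFβ-treated arrays were then compared with untreated arrays of the same siRNA, where 0 to 4 genes of a list were called in each direction. Over all genes 6.01% were higher and 6.87% lower in siKlf4 cells, and 5.81% and 6.65% in siControl cells. The 16 chondroitin and dermatan sulfate genes had 4 higher (25%) and 0 lower in each background. Shares of the other lists ran from 0% to 21.4% higher and from 0% to 15.4% lower. Most of these counts moved by more than 1.5 times when 1 array was left out, both chondroitin counts of higher genes included. Cemip2, given above, kept its call in both backgrounds whichever array was left out. Of the other list genes named for these comparisons, several also kept theirs. In siControl cells these were Ext1 (0.49 ± 0.0750 SE, limma adjusted p = 0.00321), Hs2st1, a 2-O-sulfotransferase of heparan sulfate (-0.55 ± 0.0766, 0.00205), Chst15, a chondroitin sulfotransferase (0.88 ± 0.114, 0.00143), Actn1 (0.59 ± 0.0910, 0.00352), Mmp14 (0.47 ± 0.0745, 0.00391) and Adam17, a sheddase of syndecans and CD44 (-0.70 ± 0.0911, 0.00145). In siKlf4 cells they were Hyal2 (0.56 ± 0.0903, 0.00348), Actn1 (0.58 ± 0.0910, 0.00316) and Adamts4, a protease that cleaves versican, at 5.93 and 6.19 with TGFβ against 6.76 and 6.98 without it (-0.81 ± 0.133, 0.00393). Ext1 (0.47 ± 0.0750 SE, limma adjusted p = 0.00339), Mmp14 (0.57 ± 0.0745, 0.00111) and Adam17 (-0.67 ± 0.0911, 0.00141) were called in siKlf4 cells too. How far those calls depend on single arrays was not examined. Chst15 differed by 0.02 in siKlf4 cells (limma adjusted p = 0.964), and its interaction was called (-0.87, 0.0376).

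Other calls with TGFβ depended on single arrays. In siKlf4 cells B4galt7, which adds the first galactose of the linker between chain and protein, was higher by 0.50 ± 0.0959 (SE, limma adjusted p = 0.00840), and Csgalnact1, which starts chondroitin chains, by 0.72 ± 0.128 (0.00576). Both calls were lost without array 2 of siKlf4 with TGFβ (0.0844 and 0.0576). Mmp9, a gelatinase, was higher by 0.57 ± 0.137 (0.0246) and Hs2st1 lower (-0.35 ± 0.0766, 0.0155), and each call was lost without siKlf4 array 1 or either array of siKlf4 with TGFβ (at most 0.166 and 0.123). Ezr was lower (-0.39 ± 0.0943, 0.0272), a call lost without either siKlf4 array or array 1 of siKlf4 with TGFβ (at most 0.210).

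In siControl cells Hyal2 was higher with TGFβ by 0.47 ± 0.0903 (SE, limma adjusted p = 0.00997), a call lost without array 1 of siControl with TGFβ (0.0960). Tgfbr3 was higher by 0.37 ± 0.0874 (0.0250), a call lost without any 1 of the siControl arrays or of the TGFβ arrays of either siRNA (at most 0.152).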

How the data were processed

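RNA of siKlf4 and siControl NMuMG cells was hybridised to 8 Affymetrix whole-transcript arrays, and the authors deposited log2 values after RMA normalization (oligo 1.14.0 in the submitters' processing notes; background settings and annotation are not given in the sources used here, and base 2 was read from the range of the values). Array medians ran from 4.90 to 5.00 and replicate arrays correlated at 0.997 to 0.998; the 2 arrays per group limit the precision. Of 34760 probe sets 21640 had 1 gene symbol, 1321 several and 11799 none listed here; the highest-mean probe set stood for each of 19937 genes. limma 3.58.1 (R 4.3.3) fitted 1 mean per group over all 8 arrays with moderated variances (4 residual and 4.93 prior degrees of freedom), in place of the one-way analysis of variance in the methods, which was an alternative. The Benjamini-Hochberg adjustment ran over all genes, with a threshold of 0.05. The fit was tested on simulated data. The other alternatives were a spread that follows the level (fitted together with limma's robust option), quantile or cyclic loess normalization of the deposited values, the 4 arrays compared alone, the mean of a gene's probe sets, the dimmest 30% of genes left out, a replicate block and each array left out in turn. Of each list, the called genes with the largest rise and fall in each of 4 comparisons were named, if their arrays did not overlap; 1 such result is not reported here. The members and lists were chosen with earlier results of these data known.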

Additional observations from a re-analysis of the deposited data

Results flagged for a closer look

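Has2 was singled out because its response to siKlf4 differed between the conditions by the interaction term of the limma fit: -1.20 on the log2 scale (adjusted p = 0.0101). The siKlf4 difference was 0.04 with TGFβ and 1.24 without it. The call was lost without array 1 (0.0582) or 2 (0.0512) of siKlf4 with TGFβ or without array 1 (0.0583) or 2 (0.0545) of siControl with TGFβ. The group means were 3.90 in siKlf4 with TGFβ, 3.86 in siControl with TGFβ, 4.96 in siKlf4 and 3.71 in siControl cells, and those other than 4.96 lay under 4.18, the level that 30% of genes fall below.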

How the results depend on the processing

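With the 4 arrays of each comparison fitted alone, TGFβ called 1 gene higher in siControl cells. With a spread that follows the level, siKlf4 without TGFβ called 7 higher, adding Sdc1 (limma adjusted p = 0.0176) and Sdc4 (0.0353). That setting also added Sdc3 to the genes higher with TGFβ in siKlf4 cells (0.0231). Under it, siKlf4 plus TGFβ against untreated siControl called 1 lower. In an unmoderated analysis of variance TGFβ in siKlf4 cells called 1 higher and 1 lower and the interaction 0 lower; without the dimmest 30% of genes, where 6 of the 10 remained, TGFβ in siKlf4 cells called 1 lower and the interaction 0. With 1 array left out, counts of higher and lower genes ran from 5 to 6 and 0 to 0 for siKlf4 with TGFβ, 5 to 5 and 0 to 0 without, 0 to 4 and 1 to 2 for TGFβ in siKlf4 cells, 1 to 2 and 0 to 1 in siControl cells, 5 to 6 and 0 to 0 for both treatments against none, 5 to 5 and 0 to 0 for siKlf4 against TGFβ alone, and 0 to 0 and 0 to 1 for the interaction; where this left 1 array in a group, its spread was taken from the other groups. The labels give the groups shared replicate numbers. Array differences between numbers correlated at 0.38 for siKlf4 with siControl, both without TGFβ. For the other pairs of groups they correlated between -0.05 and 0.04. The numbers were therefore not taken to pair the arrays of all 4 groups, and a pairing within the arrays without TGFβ alone was not modelled. With the replicate block the counts were 6 and 0 for siKlf4 with TGFβ, 5 and 0 without, 3 and 2 for TGFβ in siKlf4 and 2 and 1 in siControl cells, and no member's call changed. No member reversed. Of 768 list counts under alternatives, 105 moved by more than 1.5 times. Signal near background limits Sdc2, Vcan, Bgn and Has2.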
